A study of Homo sapiens with 6 samples.

Results

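RN7SK is the gene of the 7SK small nuclear RNA, RN7SKP71 and RN7SKP203 are annotated copies of it, and AL162581.1 is a feature whose values lie next to those of RN7SK in every library. These 4 rows were taken by name from the 219 rows of the table. Each of them had a partner row named by a transcript ID with the same 6 values, and these partners are duplicates that were not counted as further members. The fit and the shares of called rows given below used all 219 rows, duplicates included. Total RNA-seq was performed on MDA-MB-231 (MBA-MD-231 in the labels), a long-established line of human breast cancer cells of the triple-negative type. The cells carried either a control hairpin (shControl, genotype labelled wildtype) or a short hairpin RNA against RESF1 (RESF1 knockdown), and both groups were grown with 10 ug/ml puromycin after lentiviral infection. Each group had 3 libraries, from dishes seeded at the same density, and separate infections are not named. P-values therefore measure the spread between these dishes. The question was whether depletion of RESF1, which the study links to the 7S RNA genes among other highly expressed sequences, changes the level of the 7SK RNA.

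The headers of the 3 knockdown columns name hairpin G5, so the knockdown rests on 1 hairpin sequence, and the hairpin called 565 in the labels was not seen in a header. The G5 target is shown because every difference below rests on it, and capitals are not used in it.
G5 target: gatggatttgagatgctacaa
This stretch of 21 bases lies in coding sequence of RESF1 (GRCh38, chr12:31992419-31992439, plus strand) and was found in 5 of 8 annotated RESF1 transcripts. The longest run it has in common with the RN7SK transcript was 5 bases on the same strand and 6 bases on the opposite strand. RESF1 itself had no row by its symbol, so the depletion was not checked in these libraries. A row named only by a transcript ID may hold RESF1. The study reports lower RESF1 in knockdown cells of this line by qRT-PCR and western blot. None of 9 marker genes by which the cell line might be checked had a row by symbol.

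The 7SK RNA is a short nuclear RNA made by RNA polymerase III. It is the scaffold of a ribonucleoprotein in which the HEXIM proteins hold the elongation factor P-TEFb, a complex of CDK9 and a T-type cyclin, in an inactive state, and release of P-TEFb lets paused RNA polymerase II proceed. MEPCE caps the 5′ end of the RNA, LARP7 binds and protects its 3′ end, and the human genome carries many pseudogene copies of the gene.

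RN7SK lies on chromosome 6 (GRCh38, positions 52995621 to 52995948, plus strand, 328 bases, 1 exon), 316 bases away from GSTA4. The annotation holds a second entry named 7SK, of 331 bases, over the same place (positions 52995620 to 52995950). RN7SKP71 lies on chromosome 12 (positions 112267077 to 112267394, plus strand, 318 bases) inside an intron of HECTD4, a gene on the opposite strand. RN7SKP203 lies on chromosome 2 (positions 76445079 to 76445410, minus strand, 332 bases) between genes, with GCFC2 734093 bases away on one side and LRRTM4 302274 bases away on the other. AL162581.1 matched no symbol in the annotation used here, so its position, strand and length are not given. The authors counted on the CHM13 genome, so these positions describe the annotated genes in GRCh38 and not the counted intervals.

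The first 300 bases of the 3 annotated RNAs (GENCODE 44, GRCh38) are shown. Within them, the copies can be told from RN7SK only where the letters differ. Later bases lie outside both alignments and are not shown. The bases shown were read from chr6:52995621-52995920 on the plus strand, chr12:112267077-112267376 on the plus strand and chr2:76445111-76445410 on the minus strand. In RN7SK, capitals mark the positions at which either copy has a substitution. In the copies, capitals mark substitutions and the bases outside the alignment to RN7SK.
RN7SK: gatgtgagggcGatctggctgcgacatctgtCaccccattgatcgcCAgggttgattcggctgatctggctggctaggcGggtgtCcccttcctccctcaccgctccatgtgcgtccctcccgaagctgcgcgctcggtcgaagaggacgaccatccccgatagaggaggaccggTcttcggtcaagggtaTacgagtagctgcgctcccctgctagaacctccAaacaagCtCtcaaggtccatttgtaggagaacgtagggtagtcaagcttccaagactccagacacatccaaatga
RN7SKP71: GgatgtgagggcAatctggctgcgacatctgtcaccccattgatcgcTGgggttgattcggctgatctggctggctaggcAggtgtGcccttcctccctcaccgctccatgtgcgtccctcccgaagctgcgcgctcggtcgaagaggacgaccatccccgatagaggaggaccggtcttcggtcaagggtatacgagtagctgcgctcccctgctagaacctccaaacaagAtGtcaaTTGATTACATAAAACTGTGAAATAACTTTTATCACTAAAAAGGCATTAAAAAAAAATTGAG
RN7SKP203: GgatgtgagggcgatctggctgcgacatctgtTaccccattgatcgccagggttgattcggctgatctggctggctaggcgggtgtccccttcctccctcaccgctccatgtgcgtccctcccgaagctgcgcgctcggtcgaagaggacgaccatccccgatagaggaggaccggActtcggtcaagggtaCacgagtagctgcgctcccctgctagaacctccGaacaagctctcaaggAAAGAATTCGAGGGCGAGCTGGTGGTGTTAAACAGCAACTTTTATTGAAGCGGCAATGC

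Both copies were copies of the 5′ part of the RNA only. RN7SKP71 aligned to bases 1 to 238 of RN7SK with 7 substitutions and no gap, an identity of 97.1%, and its last 79 bases did not align. RN7SKP203 aligned to bases 1 to 240 with 4 substitutions and no gap, an identity of 98.3%, and its last 91 bases did not align. The 3′ end of 7SK, at which LARP7 binds, was thus outside both alignments. The substitutions are given with the RN7SK base first and the copy's base last, counted from 1 at the annotated start of RN7SK. They were G12A, C47T, A48G, G80A, C86G, C232A and C234G in RN7SKP71, and C32T, T176A, T192C and A225G in RN7SKP203, with no position in common. Between them ran long stretches with no difference from RN7SK, of 145 bases in RN7SKP71 (positions 87 to 231) and of 143 bases in RN7SKP203 (positions 33 to 175). A read that lies wholly inside such a stretch has the same letters in the copy and in RN7SK. The read length and the handling of reads with several matches were not given in the sources used here.

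**Figure D1:**
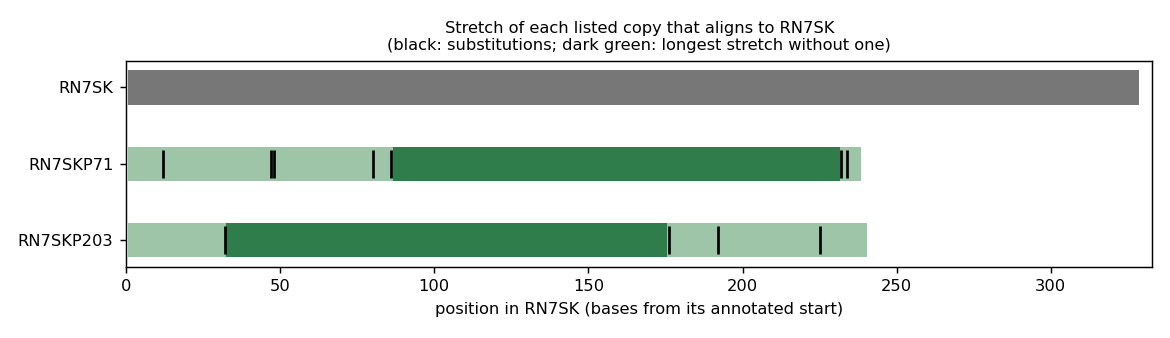
Horizontal bars show the part of RN7SKP71 and RN7SKP203 that aligned to RN7SK, by position in RN7SK in bases, with substitutions as black ticks and the longest stretch without one in dark green. Both alignments end near base 240 of the 328 bases of RN7SK, and each holds 1 stretch of over 140 identical bases.

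Of the 293 annotated RN7SKP copies, only RN7SKP71 and RN7SKP203 had a row by symbol, and these 2 had the longest stretches identical to RN7SK of all 293. The next was RN7SKP80 with 128 bases and then RN7SKP255 with 103 bases, and no other copy reached 100 bases. The median over the 293 copies was 23 bases. By identity the order was less clear: among the 201 copies with at least 200 aligned bases, which had a median identity of 88.1%, RN7SKP203 ranked 1 and RN7SKP71 ranked 5. A window of 100 bases moved along RN7SK was found unchanged in RN7SKP71 at 20.1% of its positions and in RN7SKP203 at 19.2%. The ranks are a description. They were computed after the listed copies were known and from GRCh38, and whether shared reads set which copies have a row was not tested. Every row of the table separated the groups, so a copy without a row may still have had reads. Such a copy may also stand under a transcript ID.

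**Figure D2:**
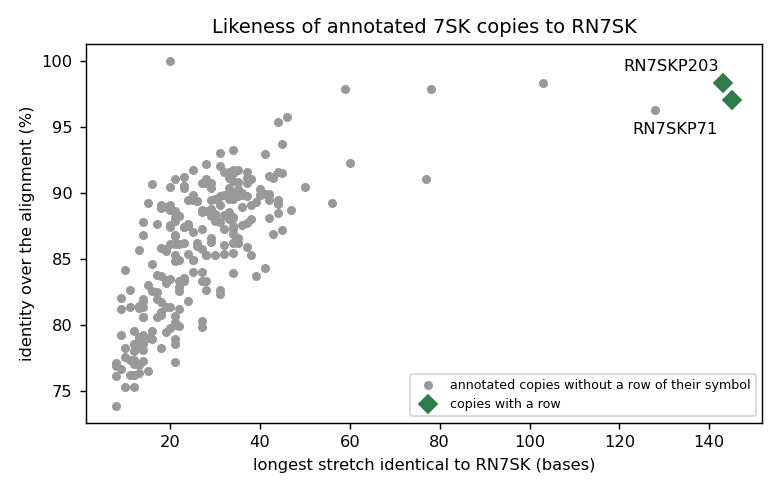
Each point is one of the 263 annotated copies with an alignment to RN7SK, with the longest stretch identical to RN7SK in bases on the horizontal axis and identity in percent on the vertical axis. The copies with a row, RN7SKP71 and RN7SKP203, lie at the right end with 145 and 143 bases.

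The copies did not carry the sequence that lies in front of RN7SK. The 300 bases before each copy gave 0 blastn alignments to the 300 bases before RN7SK (E-value limit 0.01), and the longest runs in common were 9 bases for RN7SKP71 and 10 bases for RN7SKP203. Because the study concerns G-quadruplexes, the first 300 bases of each RNA were searched for runs of guanine. The letters GGG repeated 4 times with 1 to 7 bases between them were found on neither strand of RN7SK, RN7SKP71 or RN7SKP203. They were found in 14.3% of 35116 RefSeq promoter windows of 300 bases on the gene strand and in 13.0% on the other. The same search with GG, which also takes every match with GGG, found a match on both strands of all 3, and in 66.1% and 63.0% of those windows. Among the 293 annotated RN7SKP copies, GGG matched in 0.341% on each strand, and GG in 66.6% on the RNA strand and 54.9% on the other. The study used other prediction tools and reported enrichment for quadruplexes with only 2 layers of guanines, so neither search is its measure. A match describes letters and not a folded structure.

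All 4 rows were about 15% lower in RESF1 knockdown than in shControl. RN7SK had normalized read counts of 126659, 123713 and 121185 in the shControl libraries, and of 101319, 107623 and 106745 in the knockdown libraries, in the order of columns 1 to 6. Every knockdown library was below every shControl library, by at least 13562, or 11.2% of the lowest shControl value. The mean went from 123852 ± 2740 to 105229 ± 3415 (SD, n = 3 each), which is 15.0% lower. The log2 change was -0.24 (limma, SE 0.055, adjusted p 0.00555). Since total RNA was measured in bulk, a lower level in every cell and fewer cells with the RNA cannot be told apart.

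AL162581.1 is a feature of unknown function here. It had 126036, 123116 and 119048 in shControl and 100787, 107303 and 106198 in knockdown. The groups did not overlap, and the order of the libraries from highest to lowest was that of RN7SK. Its mean was 122733 ± 3510 and then 104763 ± 3487 (SD, n = 3 each), with a log2 change of -0.23 (limma, SE 0.056, adjusted p 0.00686).

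RN7SKP71 had 5893.74, 5844.16 and 5652.71 in shControl and 4739.52, 5097.75 and 4838.97 in knockdown. Again the groups did not overlap, and among the knockdown libraries column 4 was the lowest and column 5 the highest, as for RN7SK. The mean of this copy fell from 5797 ± 127 to 4892 ± 185 (SD, n = 3 each), with a log2 change of -0.25 (limma, SE 0.056, adjusted p 0.00514).

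RN7SKP203 had 3678.25, 3574.05 and 3619.61 in shControl and 2967.51, 2923.22 and 3266.62 in knockdown. The groups did not overlap here either, but the order differed, since column 5 was the lowest knockdown library and column 6 stood above the other two. RN7SKP203 fell from a mean of 3624 ± 52.2 to one of 3052 ± 187 (SD, n = 3 each), with a log2 change of -0.25 (limma, SE 0.063, adjusted p 0.00736).

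**Figure D3:**
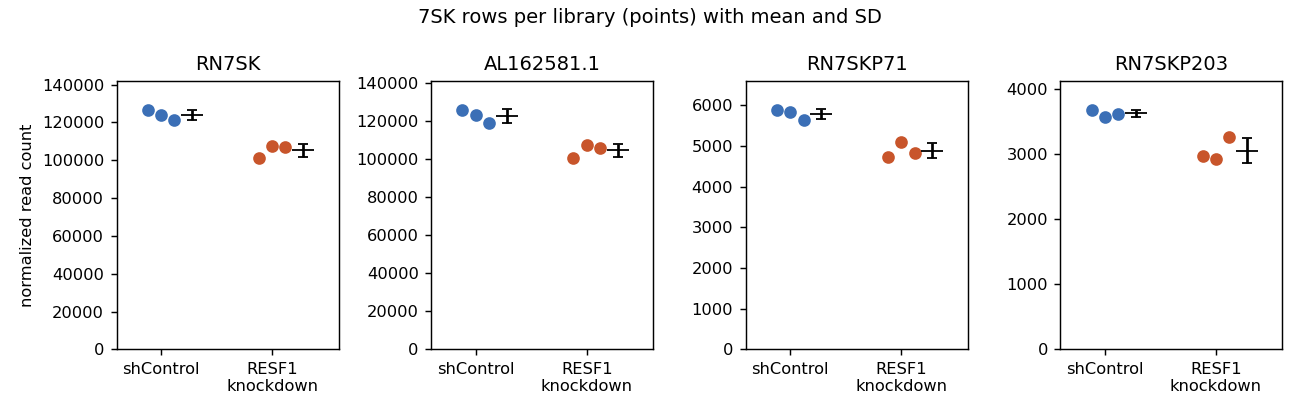
Points are the normalized read counts of each library for RN7SK, AL162581.1, RN7SKP71 and RN7SKP203, each on its own linear axis from 0, and the black marks are mean and SD (n = 3). In each panel the knockdown libraries lie below the shControl libraries, by 14.6% to 15.8% in the mean.

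These calls have to be read against the table. Of its 219 rows, 100% had a limma adjusted p of at most 0.05 in one direction or the other, 100% had groups that did not overlap, and 45.2% were called lower in knockdown. The table thus holds only rows that separate the groups, and 4 called members of 4 are no more than the table holds throughout. The adjusted p-values were computed within this list, so they are not error rates over all genes measured. Of the 198 distinct rows 87 fell, the 4 members among them. The 4 falls were among the smallest: RN7SK ranked 81, AL162581.1 ranked 83, RN7SKP71 ranked 78 and RN7SKP203 ranked 73 of the 87 distinct falling rows, counted from the largest fall, and the median of these 87 rows was a log2 change of -0.42. By mean level over the distinct rows RN7SK ranked 2, AL162581.1 ranked 3, RN7SKP71 ranked 15 and RN7SKP203 ranked 22. The smallest fall listed was a log2 change of -0.17, in a row with a mean of 2943. A small fall in a low row may not separate the groups and would then be absent from the list. The ranks by fall and the median fall therefore do not show that the members responded weakly. The SD of RN7SK was 2.21% of the mean in shControl and 3.24% in knockdown, against medians of 6.93% and 6.11% over the distinct rows. RN7SKP203 had 1.44% in shControl but 6.12% in knockdown, at the median of the table. When the libraries were rescaled by the median ratio over the listed rows, the median log2 change of all rows moved by -0.19. The log2 change of RN7SK became -0.43, that of AL162581.1 -0.42 and that of each copy -0.44. This rescaling had no unchanged rows to rest on, since 120 of the listed rows were called higher and 99 lower. The rescaled values are therefore no better a measure of the change. The sequencing depth behind these values is unknown, so a loss of RNA and a difference in scaling cannot be told apart from the level of a row alone.

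**Figure D4:**
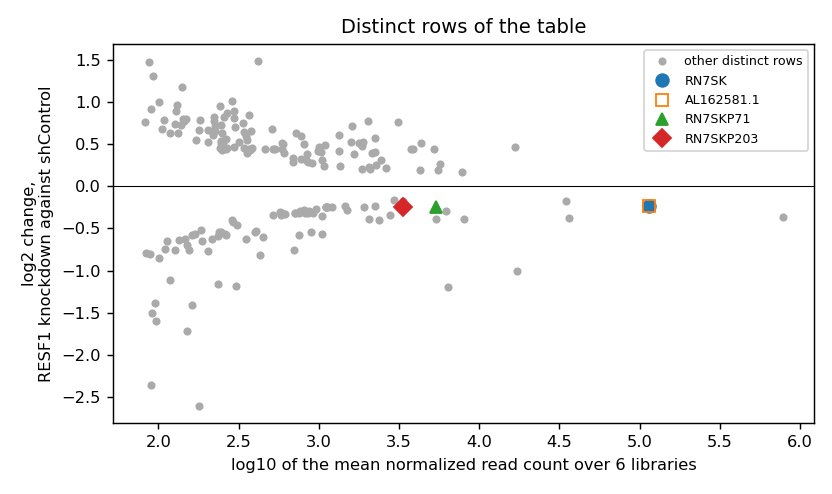
Each point is a distinct row, with the log10 of its mean normalized read count over 6 libraries on the horizontal axis and its log2 change, RESF1 knockdown against shControl, on the vertical axis. RN7SK and AL162581.1 lie on top of each other at the right, the copies lie to their left at the same height, and no row lies near a change of 0.

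The ratio of each row to RN7SK within a library does not depend on how that library was scaled. AL162581.1 was at 99.5%, 99.5% and 98.2% of RN7SK in shControl and at 99.5%, 99.7% and 99.5% in knockdown. The shControl library in column 3 was the only one under 99%, and there AL162581.1 was short of RN7SK by 2137 normalized reads, against 320 to 623 in the other 5 libraries. The groups overlapped. The log2 difference between groups was 0.0068 (SE 0.0063, exact permutation test, two-sided p 0.6), and 0.00061 without that library.

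RN7SKP71 was at 4.65%, 4.72% and 4.66% of RN7SK in shControl and at 4.68%, 4.74% and 4.53% in knockdown. The knockdown values lay on both sides of the shControl values. Its log2 difference was -0.0099 (SE 0.020, exact permutation test, two-sided p 0.9). Without the knockdown library in column 6, the lowest of the 6, it was 0.0082.

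RN7SKP203 was at 2.90%, 2.89% and 2.99% of RN7SK in shControl and at 2.93%, 2.72% and 3.06% in knockdown. The lowest and the highest of the 6 values were both knockdown libraries. The log2 difference was -0.014 (SE 0.052, exact permutation test, two-sided p 0.9). It was 0.033 without the knockdown library in column 5 and 0.00087 without the shControl library in column 3. These 3 ratios were the ones tested against RN7SK, and the smallest p that 3 libraries against 3 allow is 0.1, so the tests could not pass a threshold of 0.05. A p above it does not show that the ratios were equal. Each of the 3 log2 differences was smaller than the SD of that log2 ratio over the 6 libraries.

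**Figure D5:**
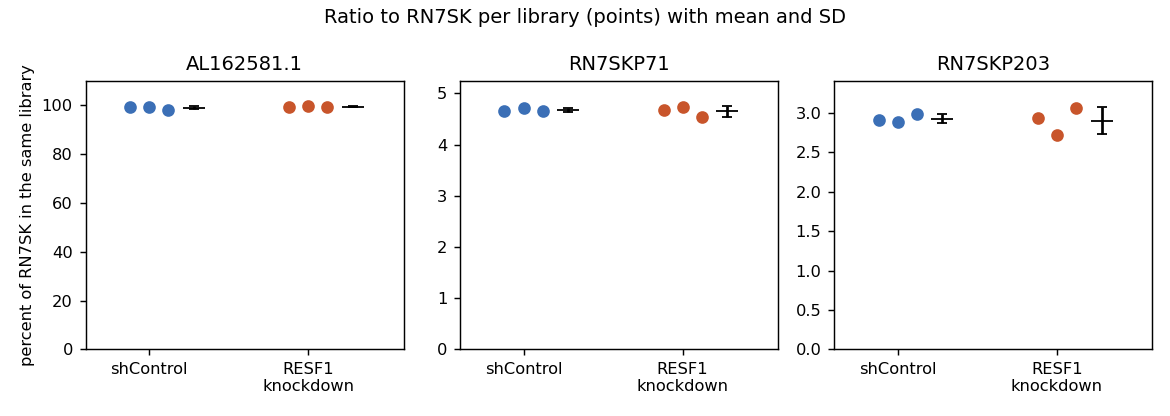
Points are each library's value of AL162581.1, RN7SKP71 and RN7SKP203 as a percent of RN7SK in the same library, on linear axes from 0, and black marks are mean and SD (n = 3). The groups overlap in all 3 panels, near 99%, 4.7% and 2.9%.

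Levels were also set per length, since the annotated RNAs differ in it. Per kilobase of GRCh38 length, the level of RN7SK was 377599 ± 8353 in shControl and 320820 ± 10410 in knockdown (SD, n = 3 each). On this scale RN7SKP71 was 20.7-fold below RN7SK in shControl and 20.9-fold below it in knockdown, and RN7SKP203 was 34.6-fold and 34.9-fold below it. AL162581.1 is left out because its length is not given here. The 4 rows may not be separate measurements. The rows of AL162581.1 and RN7SK carry adjacent transcript IDs (CHM13_T0188725 and CHM13_T0188726), and whether they count the same reads was not tested, since no reads were used.

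The proteins that act with 7SK could not be compared. Of 7 genes of the 7SK particle and P-TEFb (among them HEXIM1, LARP7, MEPCE and CDK9), 0 had a row by symbol. The same was true of 6 other genes for proteins that bind the 7SK RNA, such as HNRNPA1, and of 22 genes needed to transcribe RN7SK, such as SNAPC1 and POLR3A. Of 20 other RNA polymerase III transcripts, 2 had a row, and both were 7SL RNAs, the RNA of the signal recognition particle. No row was named as a U6 or a Y RNA. Rows named only by a transcript ID may hold such genes and were not analysed here for them.

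The change of both 7SL RNAs was larger in size than that of RN7SK, and for RN7SL1 the difference was tested as a ratio. RN7SL1 changed by -0.37 (SE 0.066, limma adjusted p 0.00208) and RN7SL2 by -0.37 (SE 0.064, limma adjusted p 0.00197) on the log2 scale, whereas the copy RN7SL4P, added because it has the same prefix, changed by -0.25 (SE 0.068, limma adjusted p 0.0099). RN7SK was at 13.8%, 14.4% and 14.1% of RN7SL1 in shControl and at 15.7%, 14.9% and 15.9% in knockdown, so that every knockdown library was above every shControl library. The log2 difference was 0.13 (SE 0.034, exact permutation test, two-sided p 0.1, the lowest that can be reached). How many other rows have a ratio to RN7SL1 that separates the groups was not counted. Every row of the table separated the groups by itself, so the lack of overlap is not shown to be particular to RN7SK. RN7SKP71 had a log2 difference against RN7SL1 of 0.12 (SE 0.029, exact permutation test, two-sided p 0.1). Since RN7SKP71 stayed at 4.53% to 4.74% of RN7SK in all 6 libraries, this value largely repeats that of RN7SK and adds no separate support. RN7SKP203 gave 0.12 as well, but its groups overlapped (SE 0.082, exact permutation test, two-sided p 0.3).

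The rows whose pattern over the 6 libraries was most like that of RN7SK were found by the SD of their log2 ratio to it. AL162581.1 had the smallest SD of 197 distinct rows, 0.0078, and RN7SKP71 had the next, 0.023. The SD of RN7SKP203 was 0.058, and 7 rows had a smaller one. The median over the rows was 0.37, a value that includes all rows that rose. Among the other rows named by a symbol, the 5 smallest were those of AC133435.1 (SD 0.045), the ribosomal protein pseudogene RPL5P34 (0.063), AC099560.2 (0.069), RN7SL1 (0.082) and RN7SL2 (0.087). AC133435.1 averaged 2076 ± 73.5 in shControl and 1751 ± 44.9 in knockdown (SD, n = 3 each), with a log2 change of -0.25 (limma, SE 0.056, adjusted p 0.00514). RPL5P34 changed by -0.30 (SE 0.063, limma adjusted p 0.0037) and AC099560.2 by -0.34 (SE 0.052, limma adjusted p 0.00134). AC133435.1 and AC099560.2 matched no symbol in the annotation used here.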

How the data were processed

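Libraries were made from total RNA with a stranded kit. Per the study's methods and the labels, the authors worked in Partek Flow: STAR 2.7.8a with default settings for alignment to T2Tv2a (CHM13), median-ratio normalization, and DESeq2 for the test. The tool used to count, its strand setting and the annotation version are not given in the sources used here. What the authors deposited is a signal of normalized read counts for each row, from 25.4 to 915297. They are not whole reads: at the best step, 23.4% to 27.4% of the values under 600 in a library came within 0.05 of a whole number. Depth is therefore unknown. Columns were assigned to groups by their names, which carry no replicate number of a title. All columns were used.

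Log2(value + 1) of all 219 rows was tested with limma 3.58.1 (R 4.3.3, lmFit and eBayes, no covariate, two-sided), with Benjamini-Hochberg adjustment over all rows and calls at 0.05. Changes on this scale understate those of low rows. The adjustment covers only this list of rows that separate the groups. The fit was tested on simulated data in which part of the rows had no change, unlike the rows of this table. That run checked the fit and not the calls made here. Ratios were tested with exact permutation tests on log2 ratios (scipy 1.17.1). Sequences came from GENCODE 44 transcripts and GRCh38, and alignments from blastn 2.17.0. The named rows are the 4 members, listed genes of the pathway lists and the 5 symbols most like RN7SK. Members and lists were chosen with earlier results of these data known. Alternatives were 2 other pseudocounts, 2 filters on low values, dropping duplicate rows, a rescaling, a stricter threshold, a minimum change, another denominator and leaving out each library. One pathway list is not reported here.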

Additional observations from a re-analysis of the deposited data

How the results depend on the processing

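The changes of RN7SK, AL162581.1, RN7SKP71 and RN7SKP203 were negative and passed the threshold in all 13 alternatives run for each. With 1 library left out they ranged from -0.25 to -0.21, from -0.25 to -0.20, from -0.28 to -0.22 and from -0.30 to -0.22 on the log2 scale, and their largest adjusted p-values by limma over all alternatives were 0.0211, 0.0257, 0.02 and 0.0263. With duplicate rows dropped, the adjusted p of RN7SK was 0.00679. Since all 219 rows of the table were called to begin with, passing in these alternatives adds no support for the members. The count of called rows went from 219 to 79 with a minimum change of 1.5-fold, by construction, and no member was among them, since each changed by less. It was 211 to 215 with 1 library left out. Rescaling gave 188 calls, 89 higher and 99 lower, against 120 and 99 as deposited. Asking for a value of 10 in 3 or more libraries removed 0 rows and tests nothing.

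The log2 difference in the ratio to RN7SK changed sign with the library left out for RN7SKP71 and RN7SKP203, and stayed above 0 in all alternatives run for AL162581.1. With 1 library left out the log2 difference ranged from 0.00061 to 0.01 for AL162581.1, from -0.023 to 0.0082 for RN7SKP71 and from -0.053 to 0.033 for RN7SKP203. With RN7SL1 as the denominator the 2 copies gave 0.12 each, since RN7SL1 had the larger change. No paired analysis was possible because the column names number the libraries from 1 to 6 and do not repeat the replicates of the titles. The edgeR and DESeq2 alternatives were not run, since they need whole reads.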

Other observations

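The ratios of the 2 copies to RN7SK moved in opposite ways in the knockdown libraries, an observation made after the values were seen. In column 5, RN7SKP71 was at its highest of the 6 libraries (4.74% of RN7SK) and RN7SKP203 at its lowest (2.72%), and in column 6 RN7SKP71 was at its lowest (4.53%) and RN7SKP203 at its highest (3.06%). The sum of the 2 copies was at 7.45% to 7.65% of RN7SK in all 6 libraries, with a mean of 7.61% ± 0.047 in shControl and 7.55% ± 0.085 in knockdown (SD, n = 3 each). The SD of the log2 ratio to RN7SK over the 6 libraries was 0.013 for their sum, against 0.023 for RN7SKP71 and 0.058 for RN7SKP203 alone. Whether reads were divided between the 2 copies was not tested.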
